A study of Homo sapiens with 13 samples.

Results

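The metallothionein genes MT2A, MT1E, MT1M, MT1A, MT1F, MT1G, MT1H and MT1X form a cluster on chromosome 16q13, and their chromatin accessibility was followed from G1 to M-phase. The peaks assigned to them are those overlapping the body of 1 of the 8 genes or lying within 10 kb of it, each counted once. This rule gave 8 of the 129347 peaks of the series. The clearest measurements were at 3 promoters. The peak over MT2A was higher in all M-phase libraries, the peak over MT1F was lower in all of them, and the peak over MT1X overlapped between the phases. No peak lay over the starts of the other 5 genes.

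Metallothioneins are small, cysteine-rich proteins that bind zinc and copper and trap toxic metals such as cadmium. Their genes are switched on by zinc through the metal-responsive transcription factor MTF1, which binds short metal response elements in their promoters. MT2A is the broadly expressed member and responds to glucocorticoids as well, whereas the MT1 genes are a family of close copies with differing use between cell types.

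Accessibility was measured by ATAC-seq, in which the Tn5 transposase inserts adapters into open DNA, so that reads accumulate at open sites. All libraries came from T98G, a single established human glioblastoma line. The 3 G1 libraries were made from cells kept without serum for 72 h. The 3 M-phase libraries were made from cells kept without serum for 48 h, released for 36 h into serum medium with nocodazole, a microtubule poison that arrests cells in mitosis, and collected by shake-off. Release into serum and nocodazole changed together with the phase, and their parts cannot be told apart. The labels list a HiSeq and a NextSeq run for each M-phase replicate but only a HiSeq run for each G1 replicate, so platform and phase cannot be told apart either. Nothing in the labels says that replicates came from separate cultures, so the p-values measure only the spread between these libraries. In such bulk samples, an opening in more cells and a wider opening in each cell cannot be told apart.

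Values are reads per peak after the authors' scaling to the library with the fewest reads, called scaled counts here. Their totals over all peaks were 4191845 to 5092426 in G1 and 5475345 to 6000423 in M-phase. Judged by the smallest step between values, the totals stand for about 4333935 to 5365024 reads in G1 and 12470564 to 14202790 reads in M-phase, so that M-phase values carry less counting error. Of 7 genes of astroglial and glioma cells, VIM, CD44, OLIG2 and SOX2 had a peak over a start while NES, GFAP and S100B had none. Mean scaled counts in G1 and M-phase were 272.1 and 960.8 at VIM, 154.8 and 206.3 at CD44, and 85.0 and 107.2 at OLIG2. The SOX2 peak was weak, with 11.6 and 7.7. Of 6 genes of other lineages, EPCAM alone had a peak over a start, with 91.6 and 106.8, near the level of OLIG2. Changes are M-phase over G1 on the log2(scaled count + 8) scale, which understates changes of weak peaks, and were tested with limma over the 73121 peaks that were not too weak.

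The 250 bases before the starts of MT2A and MT1X are shown because the peaks over these starts behaved differently, and those of MT1H because they hold the most metal response elements of the family without a peak over the start. Sequences are from GRCh37, the assembly of hg19, read 5′ to 3′ along the gene. All 3 genes lie on the plus strand. The windows are chr16:56642246-56642495 for MT2A, chr16:56716132-56716381 for MT1X and chr16:56703476-56703725 for MT1H. Capitals mark matches on either strand to the core of the metal response element, TGCACNC or TGCGCNC.
MT2A: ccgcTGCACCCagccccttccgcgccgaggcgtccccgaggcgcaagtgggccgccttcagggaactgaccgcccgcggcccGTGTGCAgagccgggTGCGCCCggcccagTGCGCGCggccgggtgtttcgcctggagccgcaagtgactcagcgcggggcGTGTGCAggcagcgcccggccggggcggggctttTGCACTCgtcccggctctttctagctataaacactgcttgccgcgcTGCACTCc
MT1X: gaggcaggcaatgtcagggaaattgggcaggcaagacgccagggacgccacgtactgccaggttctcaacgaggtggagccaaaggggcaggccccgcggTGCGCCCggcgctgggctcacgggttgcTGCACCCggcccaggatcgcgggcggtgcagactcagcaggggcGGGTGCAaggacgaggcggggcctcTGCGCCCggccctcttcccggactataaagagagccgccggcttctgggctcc
MT1H: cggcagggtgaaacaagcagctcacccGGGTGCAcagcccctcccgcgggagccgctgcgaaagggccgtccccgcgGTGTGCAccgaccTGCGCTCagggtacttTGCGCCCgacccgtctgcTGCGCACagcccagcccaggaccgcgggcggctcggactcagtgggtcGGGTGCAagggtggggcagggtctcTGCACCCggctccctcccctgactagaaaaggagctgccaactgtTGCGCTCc

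The core was found 7 times before MT2A, 4 times before MT1X and 8 times before MT1H. It was found 5 times before MT1G, 3 times before both MT1E and MT1M, and 1 time before MT1A. Of the windows of 18877 protein-coding genes, 31.2% held at least 1 match and 2.24% held 3 or more, against 7 of the 8 metallothionein windows with 3 or more. Matches at positions -78 to -72 and -53 to -47 from the start recurred in MT1M, MT1G, MT1H and MT1X. The TATAAA sequence was present before MT2A, MT1E, MT1G and MT1X, and in 9.13% of all windows. All 8 windows held the GC box GGGCGG, as did 60.1% of all windows, and a GC box overlapped a metal response core in some of the 8, MT1M, MT1A and MT1X among them. The AP-1 sequence TGANTCA was found before MT2A alone, and in 4.71% of all windows. Genes with and without a peak over the start did not separate by the count of the metal response core, since MT1X had 4 and MT1H had 8.

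**Figure D1:**
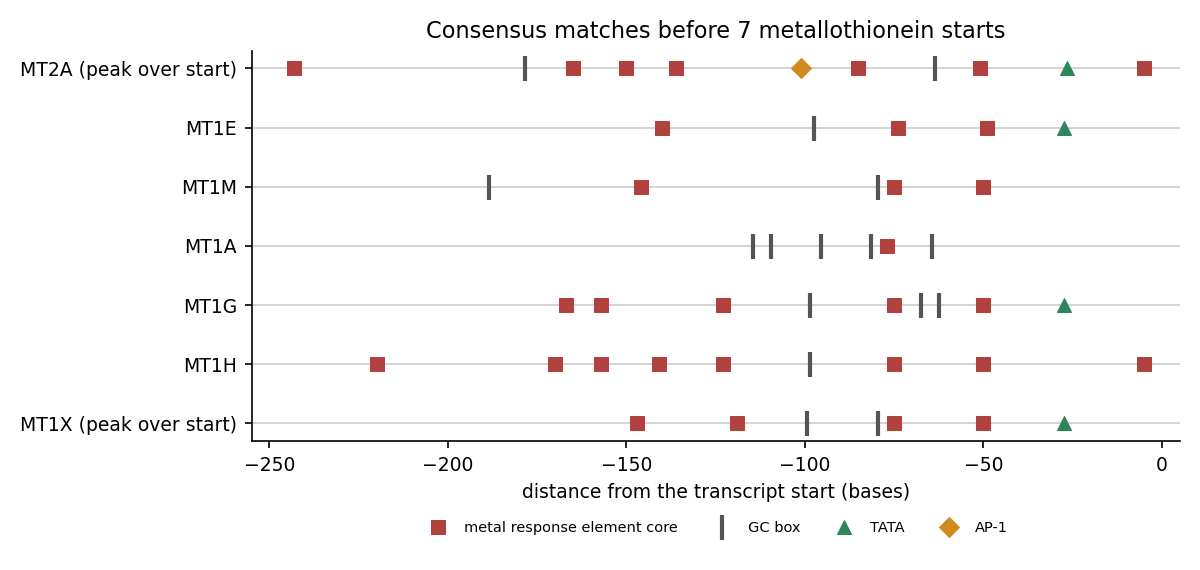
Matches to 4 consensus sequences, on both strands, in the 250 bases before 7 of the starts; the x axis gives the distance from the start in bases and each line is a gene. The metal response core occurs 8 times before MT1H, which has no peak over its start, and 4 times before MT1X, which has one.

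The cluster was open at a few points rather than along its length. MT2A, MT1F and MT1X each had 1 peak over the start of their main transcript. The start of MT1E lay 104 bp from the nearest peak, that of MT1M 5133 bp, and those of MT1G, MT1H and MT1A 9987, 10088 and 11140 bp. No peak lay within 10 kb of MT1A. Although the genes are close copies, every window of 50 bases in the 8 promoters occurs at 1 place in the genome. Reads were kept with up to 3 mapping places, and in the peaks 86.9% (the MT1E intron peak) to 100% of the windows of 50 bases were single-copy. The MT2A peak held 97.8% and the MT1F peak 100% single-copy windows.

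The MT2A peak was the main site of the cluster and was higher in M-phase. It ran from 56640509 to 56644370, covering the whole gene and parts of both sides, and 39 of all 129347 peaks were at least as wide as its 3862 bp. The scaled counts were 600.5, 453.9 and 643 in G1 replicates 1, 2 and 3 and 1075.2, 1157 and 1247.7 in M-phase replicates 1, 2 and 3. All M-phase libraries thus lay above all G1 libraries. The mean was 566 ± 99.2 in G1 and 1160.0 ± 86.3 in M-phase (SD, n = 3), which is 1.04 ± 0.15 on the log2 scale (change ± standard error, limma adjusted p = 3.64e-08). Many promoters were higher in M-phase. Of the tested peaks over any annotated start, 43.2% were called higher, with a median log2 change of 0.39, and 86.6% of them changed by less than MT2A. The rise depended on the normalization, since a loess fit that removes each library's trend with abundance gave -0.019 (limma adjusted p = 0.896). The peak also covers the start of an overlapping lncRNA, ENSG00000260823, which cannot be separated from MT2A.

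The MT1F promoter moved the other way. Its peak, from 56691470 to 56691990, covers the start and the adjoining part of the gene. The scaled counts were 72.6, 59.4 and 53 in the G1 replicates and 26.8, 17.3 and 39.5 in the M-phase replicates, so that the highest M-phase library stayed below the lowest G1 library. The mean fell from 61.7 ± 9.99 to 27.9 ± 11.1 (SD, n = 3), a change of -0.995 ± 0.26 on the log2 scale (limma adjusted p = 0.00156). These values rest on about 53 to 76 reads per library in G1 and 42 to 82 in M-phase. Of the tested peaks over a start, 5.94% were called lower, and 1.79% had a more negative change. The MT1F peak was weak for a promoter, since only 21% of the peaks over a start had a lower mean scaled count. Over all 73121 tested peaks, 13.1% were called lower and 5.8% had a more negative change. The fall was called under all 13 alternatives, with log2 changes of -1.29 with an equal total in peaks and -0.86 after the loess fit.

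The MT1X promoter peak, from 56715958 to 56717187, showed no difference past the threshold. Its scaled counts were 155.1, 122.7 and 141 in G1 and 126.9, 145 and 167.5 in M-phase, with overlapping phases. The mean was 139.6 ± 16.2 in G1 and 146 ± 20.3 in M-phase (SD, n = 3). The log2 change of 0.063 had a 95% interval of -0.33 to 0.46 (adjusted p = 0.857 from limma) and changed sign with the scaling. This peak also covers the start of an overlapping lncRNA, ENSG00000259827, whose accessibility cannot be separated from that of MT1X.

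**Figure D2:**
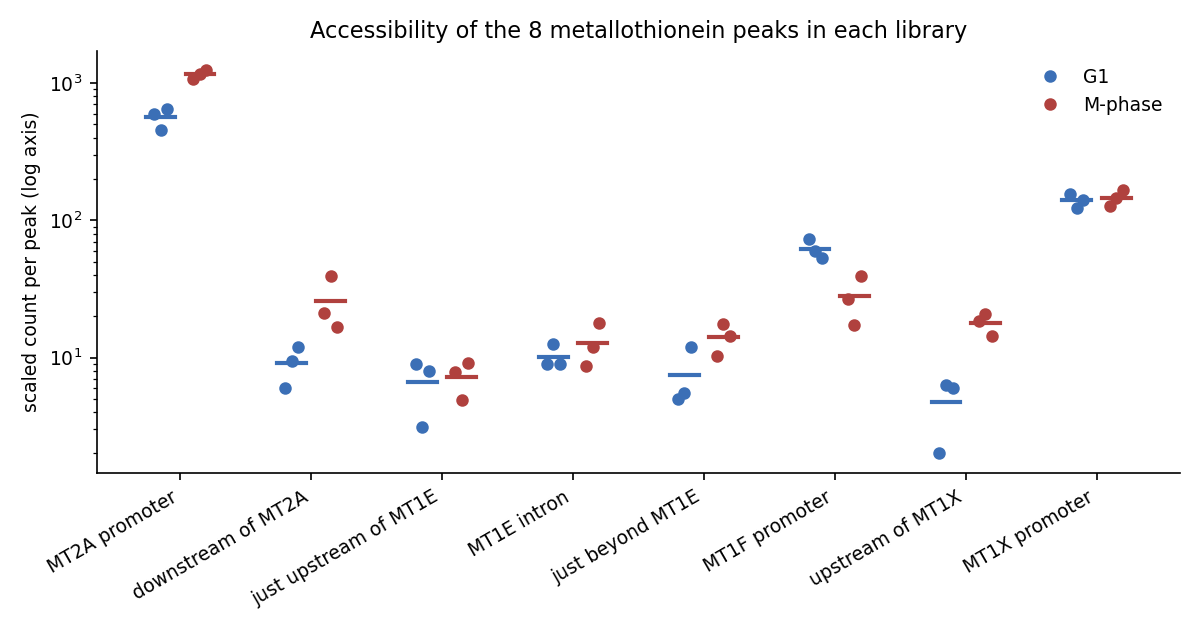
Scaled count (log axis) of the 8 peaks of the cluster, in order along the chromosome; points are the 3 libraries of each phase and lines are their means. The phases separate at MT2A, downstream of MT2A, at MT1F and upstream of MT1X, where MT1F alone is lower in M-phase.

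Per length, the means of the 3 promoters were closer in G1 than in M-phase. In G1 the scaled count per kb was 147 ± 25.7 at MT2A, 118 ± 19.2 at MT1F and 113 ± 13.2 at MT1X (SD, n = 3). The ranges of mean ± SD overlapped between these neighbours in the order. In M-phase the scaled count per kb was 300.4 ± 22.3 at MT2A, 119 ± 16.5 at MT1X and 53.5 ± 21.4 at MT1F, and these ranges did not overlap. Such a comparison of means leaves out that the peaks were measured in the same libraries. Differences between peaks of the same library do not depend on a common scaling factor, apart from the pseudocount. They still carry any trend with abundance, and the 3 peaks differ in abundance. After the loess fit, which removes that trend, the log2 changes were -0.019 at MT2A, -0.28 at MT1X and -0.86 at MT1F, so MT2A and MT1X lay closer together. The log2 difference of MT2A minus MT1F was 2.92, 2.78 and 3.42 in G1 and 4.96, 5.53 and 4.72 in M-phase. That of MT2A minus MT1X was 1.90, 1.82 and 2.13 in G1 and 3.01, 2.93 and 2.84 in M-phase. For MT1F minus MT1X it was -1.02, -0.96 and -1.29 in G1 and -1.95, -2.60 and -1.89 in M-phase. In each of these 3 pairs the phases did not overlap. The differences grew by 2.03 for MT2A minus MT1F and 0.97 for MT2A minus MT1X, and that of MT1F minus MT1X changed by -1.06 (two-sided exact permutation test, p = 0.1 for each and 0.1 after Benjamini-Hochberg adjustment over 3 pairs). This is the smallest p that 3 libraries against 3 allow.

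**Figure D3:**
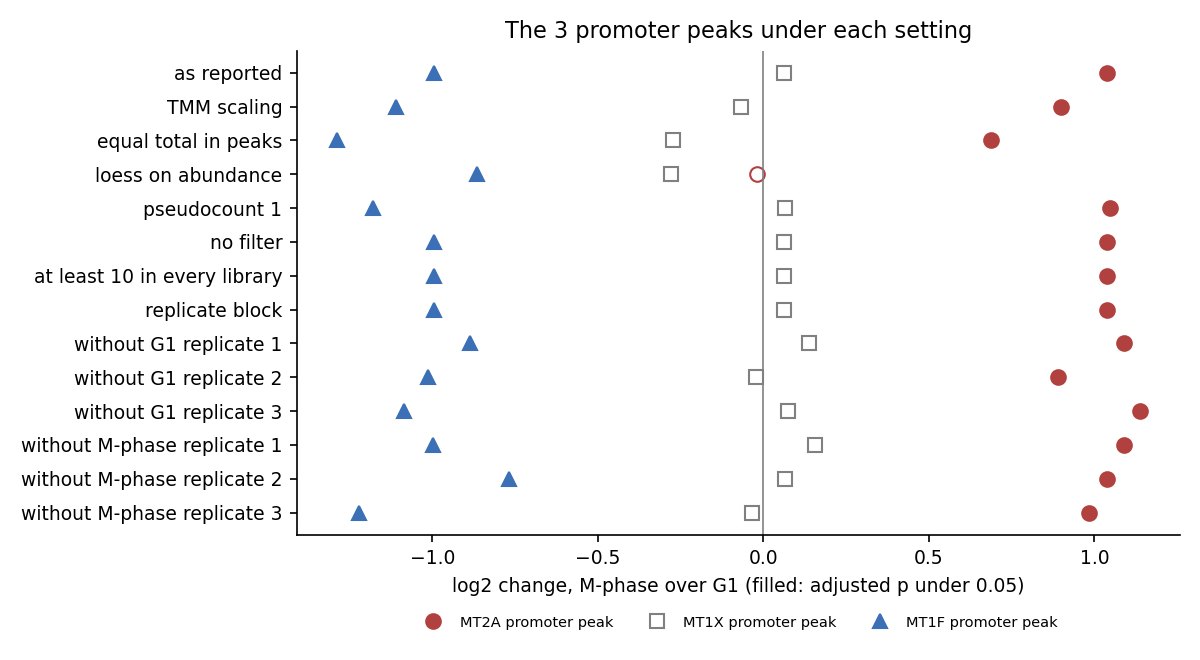
Log2 change of the MT2A, MT1X and MT1F promoter peaks (x axis, M-phase over G1) under each setting (rows); filled symbols have an adjusted p under 0.05 from limma. MT1F stays between -1.29 and -0.77, whereas MT2A drops to -0.019 after the loess fit.

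The other 5 peaks overlap no start and are weak, and the nearest to a main start lies 104 bp from that of MT1E. The peak downstream of MT2A, from 56648549 to 56648800, is intergenic and its centre lies 6179 bp from the MT2A start. Its sequence is shown on the plus strand because it rose and holds the AP-1 sequence TGANTCA, in capitals, at base 180. Of all peaks, 14.2% hold that sequence in their central 250 bases. The MT2A peak and the peak just beyond MT1E also hold 1 match each. The MT2A peak is 3862 bp wide, so the share for 250 bases does not apply to it. The peak just beyond MT1E was not called, but its log2 change of 0.53 ± 0.28 (change ± standard error) does not show that a rise was absent. The peak upstream of MT1X, which rose, holds 0. Whether a rise and this sequence go together was not tested.
Peak downstream of MT2A: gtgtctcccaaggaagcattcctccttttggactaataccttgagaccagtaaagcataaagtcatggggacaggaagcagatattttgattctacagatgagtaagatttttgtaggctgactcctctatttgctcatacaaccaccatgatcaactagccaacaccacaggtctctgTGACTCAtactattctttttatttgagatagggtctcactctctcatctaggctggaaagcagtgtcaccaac

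The scaled counts of the peak downstream of MT2A were 6, 9.4 and 12 in G1 and 21, 39.1 and 16.8 in M-phase. All M-phase libraries were above all G1 libraries, with the second M-phase replicate the highest. Its change was 0.93 ± 0.29 on the log2 scale (limma adjusted p = 0.0105). The call was lost with an equal total in peaks (0.71, adjusted p = 0.0533 from limma), without G1 replicate 1 (0.79, adjusted p = 0.0596 from limma) and without M-phase replicate 2 (0.66, adjusted p = 0.155 from limma).

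A second intergenic peak rose between MT1H and MT1X. It runs from 56713814 to 56713964, with its centre at -2493 bp from the MT1X start. The scaled counts were 2, 6.3 and 6 in G1 and 18.5, 20.6 and 14.4 in M-phase, without overlap. The gain was 1.03 ± 0.28 on the log2 scale (limma adjusted p = 0.00304), from about 2 to 8 reads per library in G1 and 30 to 50 in M-phase. The peak therefore gained while the MT1X promoter beside it, with a centre 190.5 bp past the start, did not pass the threshold; the difference between them was not tested. This peak and the one downstream of MT2A were strong enough to be tested only through their M-phase libraries, where they are high, so that their calls lend no support to a count. In a fit of all 129347 peaks without that limit, the adjusted p from limma was 0.00505 for this peak and 0.0123 for the one downstream of MT2A.

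MT1E had 3 weak peaks and no call. The peak just upstream, from 56659480 to 56659589, overlaps an exon of the longest MT1E transcript and the region before the main start. It had 8.9, 3.1 and 8 in G1 and 7.8, 4.9 and 9.1 in M-phase, and was too weak to be tested. The intron peak, from 56660073 to 56660289, had 8.9, 12.5 and 9 in G1 and 8.7, 11.9 and 17.8 in M-phase. Its log2 change of 0.18 had a 95% interval of -0.39 to 0.75 (adjusted p = 0.698 from limma). The peak just beyond the gene, from 56661350 to 56661438, had 5, 5.5 and 12 in G1 and 10.3, 17.7 and 14.4 in M-phase. Its log2 change of 0.53 had a 95% interval of -0.04 to 1.09 (adjusted p = 0.169 from limma).

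In the cluster as a whole, 7 of the 8 peaks were tested, 4 were called, 3 higher in M-phase and 1 lower, of which the 2 intergenic peaks were tested only because they are high in M-phase. Over all 73121 tested peaks, 27.3% were called, 14.3% higher and 13.1% lower. The phases did not overlap at 4 of the 8 peaks, against 30.2% of all peaks and 38.3% of the tested ones. The median log2 change of the 8 peaks was 0.35, against 0.07 over all peaks and 0.37 over peaks that overlap a start. The summed scaled count of the 8 peaks was 859, 672.8 and 884 in G1 and 1295.2, 1413.5 and 1527.2 in M-phase. The MT2A peak held 67.5% to 72.7% of this sum in G1 and 81.7% to 83.0% in M-phase. Without it the sums overlapped, at 218.9 to 258.5 in G1 and 220.0 to 279.5 in M-phase, so that the gain of the sum lay at MT2A.

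The chromatin on both sides was also mixed. Of 28 peaks in the 200 kb on each side, 14 were tested, 3 were called higher and 1 lower. Those that rose included the promoter peaks of NUDT21 and OGFOD1 (log2 change 0.59) and of NUP93 (0.57). The next peak past the 10 kb limit, starting at 56731628 beyond MT1X, was outside the cluster by this rule. Its scaled counts were 21.9, 16.4 and 9 in G1 and 5.8, 3.7 and 1.9 in M-phase, and it was too weak to be tested. On the other side, the nearest peak outside started at 56615637, with means of 2.77 and 3.17.

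**Figure D4:**
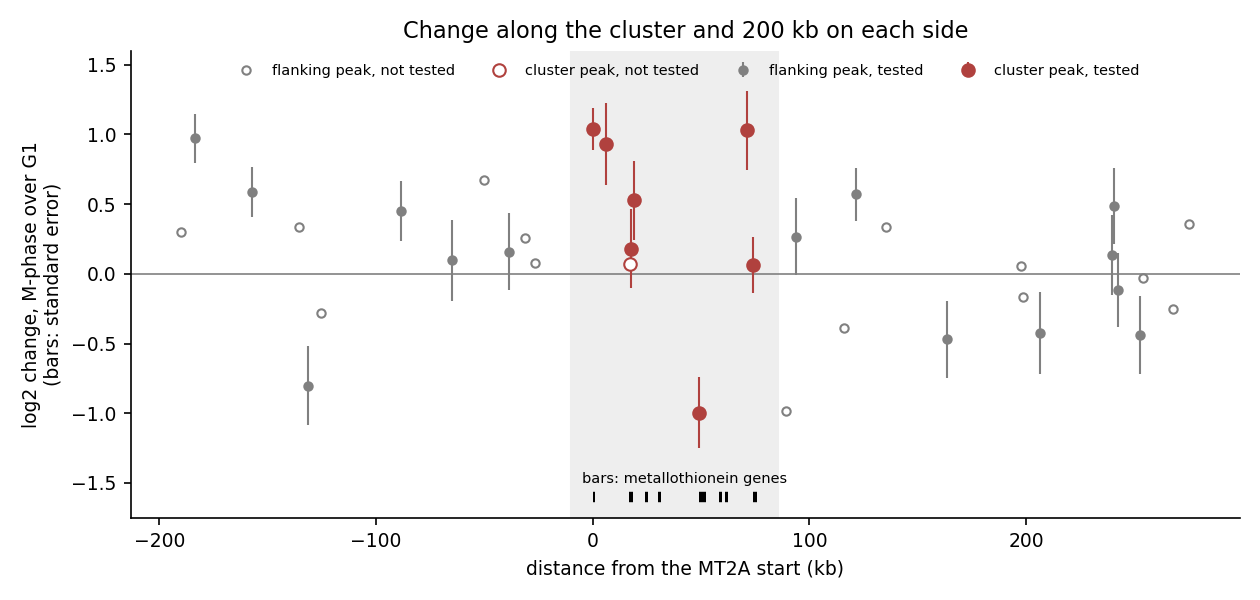
Log2 change (M-phase over G1) of the cluster peaks (red) and of flanking peaks (grey) against distance from the MT2A start in kb; bars are standard errors, open symbols were not tested, and the shaded band is the cluster with 10 kb on each side. MT1F is at -0.995, and the peaks downstream of MT2A (0.93) and before MT1X (1.03) rose. The nearest cluster peaks on the MT2A side of MT1F are those of MT1E, not called (0.18 and 0.53) or not tested (0.07).

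The promoter peaks most like that of MT2A over the 6 libraries were looked up. Among 13466 other peaks over protein-coding starts, the smallest root mean square difference in log2(scaled count + 8) was 0.0905, for ZNFX1. It was 0.0926 for the peak over MYL11 and TBC1D10B and 0.0953 for the peak over GPBP1L1 and TMEM69. The log2 changes of these 3 peaks were 1.16, 1.03 and 0.998. The peaks were picked for closeness over the same 6 libraries, so that their like changes follow from the choice.

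Other genes of zinc handling were read by their promoter peaks. Of 28 listed genes, 18 had a peak over a start and all 18 were tested, of which 11 were called higher and 1 lower, against 43.2% and 5.94% of all tested peaks over a start. MT3, MT4 and MT1B, the remaining coding metallothionein genes of the region, had none. MTF1, which binds the metal response elements, had scaled counts of 184.9, 145.3 and 172 in G1 and 253.4, 272.4 and 294 in M-phase, without overlap. This came to 0.69 ± 0.18 on the log2 scale (limma adjusted p = 0.00234), and to 0.16 after the loess fit (limma adjusted p = 0.437). SLC30A1, the zinc exporter of the cell surface and a known MTF1 target, had 335, 293 and 400 in G1 and 543.4, 712.8 and 637.6 in M-phase, or 0.87 ± 0.16 on the log2 scale (limma adjusted p = 1.48e-05). On the same log2 scale, SLC30A5, a zinc transporter of the secretory pathway, changed by 1.06, SLC30A9 by 0.72, and the zinc importers SLC39A10 and SLC39A14 by 0.71 each. The promoter that fell was that of the importer SLC39A8, with 225.7, 196.9 and 326 in G1 and 181.3, 105.5 and 170.3 in M-phase (log2 change -0.69, adjusted p = 0.00467 from limma), a call lost without M-phase replicate 2 (-0.46, limma adjusted p = 0.160). The rises depended on the scaling, since the loess fit left 1 of these promoters higher and 4 lower, and equal totals 5 higher and 3 lower.

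Of 7 stress response genes, all had a promoter peak called higher, against 43.2% of all tested peaks over a start, and 4 after the loess fit. The median log2 change was 1.08, against 0.39 over the tested peaks over a start. NFE2L2, HMOX1, GCLC and TXNRD1 had 2 such peaks each, of which the stronger was read, a choice not made for the share over all peaks. TXNRD1 and GCLC, an enzyme of thioredoxin reduction and one of glutathione synthesis, changed most. Their log2 changes were 1.61 and 1.43 (adjusted p = 4.82e-12 and 1.40e-10 from limma). NR3C1, the glucocorticoid receptor, changed by 1.09.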

How the data were processed

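ATAC-seq of T98G cells in G1 and M-phase was used, with 3 libraries per phase; the chromatin fraction and input samples were not analysed here. The authors removed adapters (cutadapt), mapped to hg19 (Rbowtie in QuasR, up to 3 locations per read and 1 kept), removed mitochondrial reads (samtools) and called broad peaks (macs2) on merged replicates. Versions, the Tn5 shift of read ends and how the runs of an M-phase replicate were joined are not given in the sources used here. The deposited signal values are reads counted per peak, which the authors scaled to the library of lowest depth and which are given to 0.1. The deposited log2 ratio and its SD are the authors' own comparison and were not used. No columns were left unmapped (0).

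The 73121 peaks that reached 10 (adjusted for library size, relative to the median library) in at least 3 libraries and summed to 15 or more were fitted with limma 3.58.1 (R 4.3.3, mean-variance trend, no covariates) after taking log2(scaled count + 8). Adjustment was by Benjamini-Hochberg over all tested peaks, with a threshold of 0.05. Count models were not used, since the rounded values could not be returned to whole reads in every library. The fit was also run on simulated counts with equal library sizes and no trend with abundance, so that run cannot show how the fit behaves under such a trend. Genes are those of GENCODE release 44 on GRCh37, and starts are those of the MANE Select transcripts. Promoter peaks overlap any annotated start. Where a listed gene had several, the one with the highest mean scaled count stood for it, whereas shares over all peaks over a start count every such peak. Sequences and windows of 50 bases were read from GRCh37 with pysam 0.24.0 (Python 3.11.15), and intervals are from limma at 95%. Named peaks are those over a metallothionein start, those with an adjusted p under 0.05 and the 3 strongest; from the zinc list, MTF1, SLC30A1 and the 6 largest called changes; and the 3 promoter peaks most like MT2A. The remaining peaks of the cluster and the stress genes were named in addition. Some items, among them the motif matches of 1 promoter window, are not reported here. The members and lists were chosen with earlier results of these data known. Alternatives were other scalings, pseudocounts, filters and flanks, the replicate block and each replicate left out.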

Additional observations from a re-analysis of the deposited data

How the results depend on the processing

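The fall at MT1F was called under all 13 alternatives run for it. The rise at MT2A was called under 12 of 13, the exception being the loess fit on abundance (-0.019), which by construction removes trends shared by peaks of like abundance. Equal totals in peaks moved the median log2 change of all peaks from 0.07 to -0.12. MT1X had a change of -0.068 with the trimmed mean of M values (TMM), -0.27 with equal totals and -0.28 after loess, and the MT1E intron peak -0.032 with equal totals. SLC39A10 was at -0.022 after loess. Across the fits without 1 replicate, MT2A ranged from 0.89 to 1.14, MT1F from -1.22 to -0.77 and MT1X from -0.033 to 0.16. The count of cluster peaks higher in M-phase was 2 to 3 and that of lower ones 1; the higher count was 1 with at least 10 in every library and 1 with members within 2 kb, where 2 weak peaks were left out. Zinc promoters higher in M-phase numbered 5 with equal totals and 1 after loess, and 8 to 12 without 1 replicate. Those lower numbered 2 with TMM, 3 with equal totals, 4 after loess, and 0 to 2 without 1 replicate. Stress promoters higher numbered 6 with TMM, 5 with equal totals, 4 after loess, and 5 to 7 without 1 replicate. The settings for this list were chosen after seeing the data. The median change of the cluster was 0.16 with equal totals, 0.14 after loess, 0.58 with a pseudocount of 1, 0.063 with at least 10 in every library, 0.13 within 2 kb, and 0.26 to 0.49 without 1 replicate. The log2 ratio of the summed counts was 0.46 with equal totals. With the core TGCACNC alone, 7 of 8 promoters held a match, against 10.3% of all windows. The share of the 8 with 3 or more matches was then 37.5%, against 0.201% of all windows. The replicate block gave 10881 higher and 10063 lower peaks against 10439 and 9548 and changed no call of the cluster; same-numbered libraries hardly deviated together (r 0.0059, -0.0101 and 0.0284), and not every library correlated best with its own number. edgeR and DESeq2 were not run, since whole reads could not be recovered in every library. Weak peaks, such as those at MT1E, rest on few reads.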
